A study of Homo sapiens with 2 samples.

Results

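The genes described here are 10 oncofetal targets of the let-7 microRNAs, read on 2 Affymetrix arrays of RNA precipitated from 293T cells. They are the RNA-binding protein genes LIN28B, IGF2BP1, IGF2BP2 and IGF2BP3, the chromatin genes HMGA1, HMGA2 and ARID3B, the ubiquitin pathway genes TRIM71 and CDC34, and the receptor gene TGFBR1. They were listed as established let-7 targets and matched by gene symbol in the platform annotation, which gave 28 probe sets, out of 41091 probe sets that carry 1 symbol and stand for 19775 genes. All 10 genes had at least 1 probe set above the detection level, a mean of both arrays above 0.92 on the log2 scale. Of the 28 probe sets, 15 passed that level. Over the whole array 23302 of the 41091 probe sets with 1 symbol passed it, as did 13144 of the 19775 genes. The level lies at about the median of all probe sets, 0.918, so passing it does not by itself show expression.

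293T is a human embryonic kidney line that carries the SV40 large T antigen. For the miR-941 array, cells received synthetic miR-941, and RNA was recovered by precipitating Ago2, an Argonaute protein that carries microRNAs to mRNAs. For the control array, cells received a scrambled oligo, with each oligo at 30 nmol/l. The control labels conflict: title and description say Ago2 precipitation, but the antibody fields say nonimmune IgG beads, from another vendor. If those fields hold, the effect of the oligo and that of the antibody cannot be told apart. Each group had 1 array, so no comparison below has a replicate check and no p-value is given. Neither array held input RNA, so a difference in precipitation, in mRNA amount per cell or in the number of cells cannot be told apart.

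The let-7 microRNAs silence a set of genes that are active in the embryo and shut off in most adult tissues, and several of these genes come back in tumours. LIN28B closes a loop with them: its mRNA is a let-7 target, and its protein blocks the maturation of let-7 precursors. MicroRNAs find mRNAs mainly through the seed, the stretch from base 2 to base 8, which pairs with sites in the 3' untranslated region.

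The seeds are shown because they separate the microRNA that was added from the family that these genes are known for. The let-7 seed and the miR-941 seed had the same base at 0 of 7 positions. Sequences are the mature forms of RefSeq (GRCh38.p14), 5' to 3', with the seed in capitals.
hsa-miR-941: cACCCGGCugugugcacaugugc
hsa-let-7a-5p: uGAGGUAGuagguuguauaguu
hsa-let-7b-5p: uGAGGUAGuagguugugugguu
hsa-let-7d-5p: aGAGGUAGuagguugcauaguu
hsa-let-7e-5p: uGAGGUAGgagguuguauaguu
hsa-let-7g-5p: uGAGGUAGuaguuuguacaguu
hsa-let-7i-5p: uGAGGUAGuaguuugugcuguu
hsa-miR-98-5p: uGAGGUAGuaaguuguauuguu

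The let-7 seed GAGGUAG was carried by 11 mature names at 14 loci in that table, with miR-98, miR-4458 and miR-4500 beside let-7a to let-7i. The let-7 members shown differ from each other only outside the seed. The miR-941 seed ACCCGGC was carried by miR-941 alone, at 5 copies on chromosome 20, each with the same mature sequence. The first copy, MIR941-1, lies on the plus strand at chr20:63919495-63919517. A full seed match would read CUACCUC for let-7 and GCCGGGU for miR-941. The 3' untranslated regions of the 10 genes were not analysed here, so no member is described as having or lacking a miR-941 match.

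None of the 10 genes differed between the arrays by 2-fold. On the brightest detected probe set of each gene, 7 had the higher value on the miR-941 array, 1 the lower and 2 had exactly the same value. The median log2 difference, miR-941 minus control, was 0.069, and the range ran from -0.07 for HMGA2 to 0.52 for IGF2BP1. Over all 13144 detected genes the median was 0, with 0.51% at least 2-fold different, 46.3% higher, 42.4% lower and 11.3% equal. Setting the 2 array medians equal over all probe sets lowers every difference by 0.06. The members then have a median of 0.0095, with 5 higher and 5 lower, and all detected genes a median of -0.060, with 41.3% higher. Averaging over the detected probe sets of a gene gives the members a median of 0.15 and all detected genes a median of 0.

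**Figure D1:**
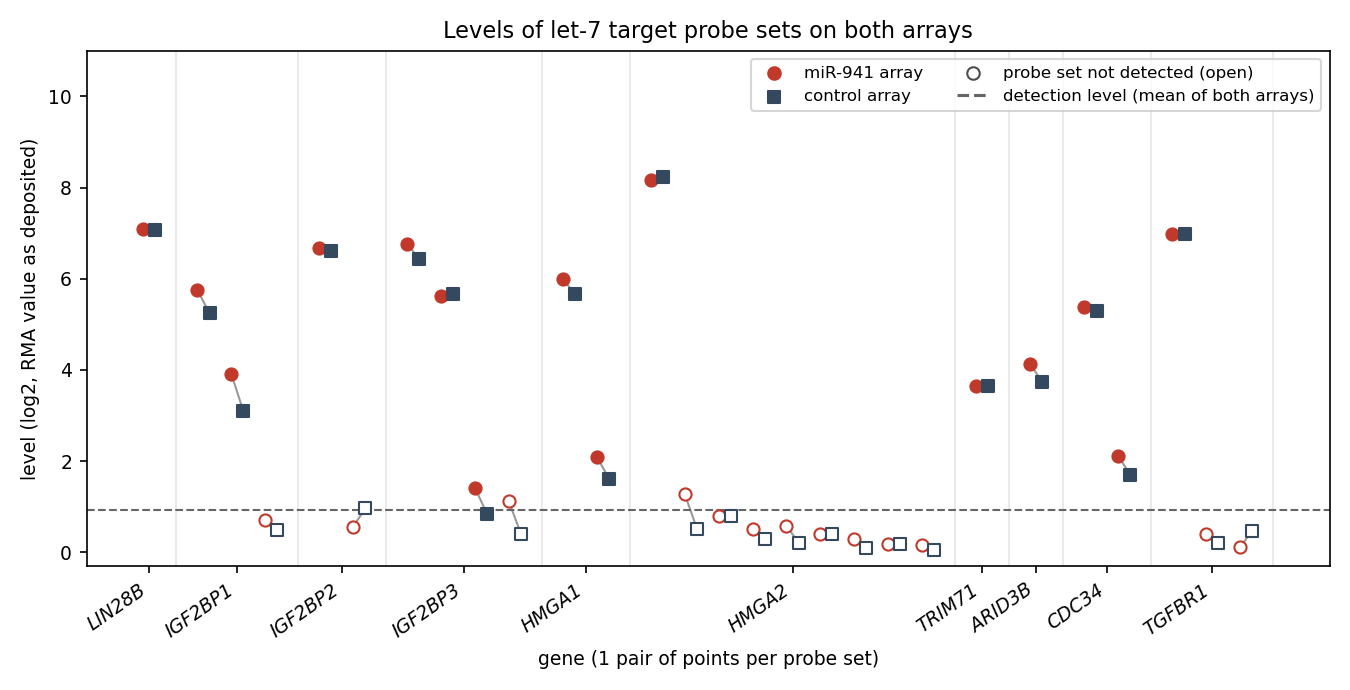
Levels of all 28 probe sets on the log2 scale, with the miR-941 array (circles) left of the control array (squares) and the detection level dashed; open symbols are the 13 probe sets that did not pass it. The pairs of LIN28B, IGF2BP2, HMGA2, TRIM71 and TGFBR1 that passed lie almost level, and both detected pairs of IGF2BP1 slope down to the control array.

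The larger differences were those of 4 members, IGF2BP1, ARID3B, IGF2BP3 and HMGA1, all higher on the miR-941 array by 0.32 to 0.52. The other 6 were within 0.1 of 0, a range that held 29% of all detected genes and 32.5% of genes above the 75th percentile of level, where all 10 members lie. Of the genes above that percentile 47.8% were higher on the miR-941 array. Where a gene had 2 or more detected probe sets, the brightest pair spread around their own mean difference with an SD of 0.29, pooled over 6102 genes. That SD is the only technical spread at hand, and it includes differences between transcript forms. The same 4 members exceed it, as do 27.1% of all detected genes, and 1 member, IGF2BP1, lies outside the central 95% of genes of like level.

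IGF2BP1 encodes an oncofetal RNA-binding protein that protects mRNAs such as MYC from decay. Its brightest probe set, 227377_at, read 5.76 on the miR-941 array and 5.24 on the control array, a log2 difference of 0.52 (1.43-fold). Its second detected probe set, 223689_at, read 3.92 on the miR-941 array and 3.10 on the control array, a difference of 0.82 (1.77-fold). Both were therefore higher on the miR-941 array, and both lay above the 97.5th percentile of detected probe sets within 0.5 of their level, at 0.46 and 0.65. A difference as high as that of the brightest probe set was found in 1.75% of 2972 such probe sets, and as high as that of the second in 1.05% of 2763. The third probe set, 241574_s_at, read 0.71 on the miR-941 array and 0.50 on the control array and was not detected. The median over the 2 detected probe sets was 0.67 ± 0.22 (SD over probe sets, which share a hybridisation and are not replicates).

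The exact difference of 227377_at, to within 1e-06, recurred in 84 other probe sets, 58 of them detected, while that of 223689_at recurred in none. Repeated differences are common in these values: 11808 of 54675 probe sets (21.6%) were exactly equal on both arrays.

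IGF2BP3, a close relative that marks many carcinomas, had 4 probe sets. The brightest, 203819_s_at, read 6.76 on the miR-941 array and 6.42 on the control array, a difference of 0.34. The next, 203820_s_at, read 5.63 on the miR-941 array and 5.68 on the control array, a difference of -0.049. These 2 probe sets of 1 gene thus disagreed in direction, and both are _s_at probe sets, which can match more than 1 transcript. The third detected one, 216493_s_at, read 1.42 on the miR-941 array and 0.84 on the control array, just inside the detection level with a mean of 1.13. The median over the 3 detected probe sets was 0.34 ± 0.32 (SD over probe sets). The undetected 1569033_at read 1.12 on the miR-941 array and 0.40 on the control array.

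IGF2BP2, the member of the family that stays active in many adult tissues, read 6.67 on the miR-941 array and 6.61 on the control array, a difference of 0.059 on its 1 detected probe set, 218847_at. With array medians set equal that difference is -0.00077, so it carries no direction. Its other probe set, 223963_s_at, read 0.56 on the miR-941 array and 0.96 on the control array and was not detected. The 3 IGF2BP genes thus ran from a difference near 0 for IGF2BP2 to 0.52 for IGF2BP1.

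LIN28B, the blocker of let-7 maturation, read 7.09 on the miR-941 array and 7.07 on the control array on its only probe set. Its difference of 0.023 turns to -0.037 with array medians set equal. Of 1282 detected genes within 0.5 of its level, 46.7% had a difference at least as high.

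HMGA1 and HMGA2 encode small chromatin proteins that bend AT-rich DNA, and the HMGA2 mRNA is a classical let-7 target with several sites. The brightest HMGA1 probe set, 206074_s_at, read 5.98 on the miR-941 array and 5.66 on the control array, a difference of 0.32. Its second, 210457_x_at, read 2.09 on the miR-941 array and 1.62 on the control array, a difference of 0.48. Both HMGA1 probe sets were higher on the miR-941 array, with a median of 0.40 ± 0.11 (SD over probe sets). Each lay within the central 95% of probe sets of like level, whose upper ends were 0.43 and 0.79.

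HMGA2 was the only member with a lower value on the miR-941 array. Its detected probe set, 208025_s_at, read 8.16 on the miR-941 array and 8.23 on the control array, a difference of -0.074. Among 573 detected genes of like level the central 95% ran from -0.46 to 0.39, which holds that difference well inside. The other 8 HMGA2 probe sets were not detected. Of these, 1559891_at lay just outside the detection level with a mean of 0.89, and read 1.27 on the miR-941 array and 0.51 on the control array. Its difference of 0.76 runs against that of the detected probe set, at readings where differences repeat: 27 other probe sets had the same one.

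ARID3B encodes an AT-rich DNA-binding protein of embryonic development. Its only probe set, 218964_at, read 4.13 on the miR-941 array and 3.73 on the control array, a difference of 0.40. No second probe set measures it. Of 1530 detected genes of like level, 9.93% had a difference at least as high, and the central 95% reached 0.63.

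TRIM71 encodes a ubiquitin ligase and RNA-binding protein of stem cells, and lin-41, its counterpart in the worm Caenorhabditis elegans, was among the first let-7 targets described. Its only probe set read 3.65 on both arrays. TGFBR1, the type I receptor of TGF-beta, read 6.98 on both arrays on its detected probe set, 224793_s_at. Exact equality at these readings was found in 11.3% of 1472 detected genes within 0.5 of the level of TRIM71, and in 3.16% of 1394 within 0.5 of that of TGFBR1. An equal value on 1 pair of arrays does not show that an mRNA was unchanged. The other TGFBR1 probe sets were not detected and differed in opposite directions, 206943_at by 0.19 and 236561_at by -0.37.

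CDC34 encodes the ubiquitin-conjugating enzyme that works with SCF ligases on cell cycle inhibitors. Its brightest probe set, 212540_at, read 5.37 on the miR-941 array and 5.29 on the control array, a difference of 0.080. Its second, 241927_x_at, read 2.12 on the miR-941 array and 1.69 on the control array, a difference of 0.42. Both were higher on the miR-941 array, but the dimmer one differed more, so the median over the probe sets was 0.25 ± 0.24 (SD). With array medians set equal, the brightest one differs by 0.020.

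**Figure D2:**
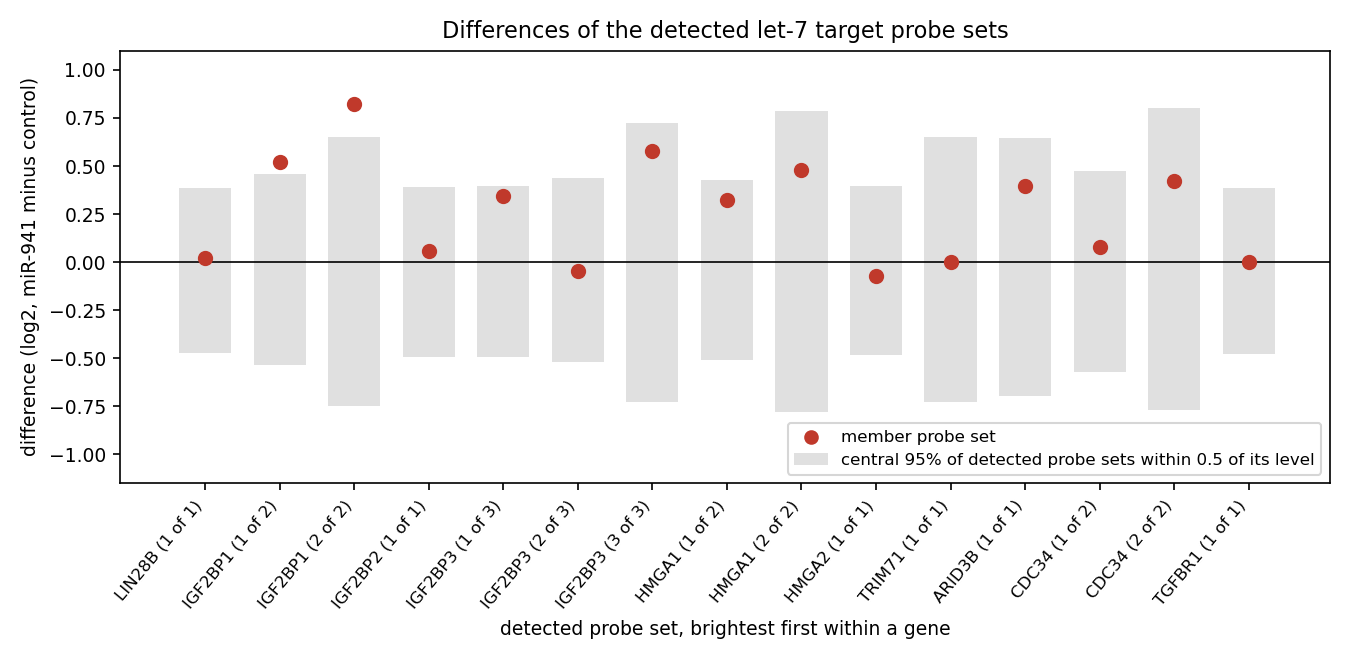
Log2 difference, miR-941 minus control, of the 15 detected member probe sets (points), brightest first within each gene; grey bars span the central 95% of detected probe sets within 0.5 of the same level. Both IGF2BP1 probe sets lie above their bars, and the other 13 lie inside theirs.

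Over the 15 detected probe sets, 11 were higher on the miR-941 array, 2 lower and 2 equal, with a median difference of 0.32. The 11 include 216493_s_at of IGF2BP3, which passed the level only through its higher miR-941 reading. Over all 23302 detected probe sets with 1 symbol, 44.2% were higher, 43.4% lower and 12.5% equal. Of the 4 members with 2 or more detected probe sets, IGF2BP1, HMGA1 and CDC34 had all of them higher. IGF2BP3 had 2 of 3 higher, 216493_s_at among them. Of all 6102 genes with 2 or more, 16.5% had all of them higher and 17.1% all lower. The 4 members are too few to set a share against that background, and probe sets of a gene share the array. The 13 undetected member probe sets gave 8 higher, 2 lower and 3 equal. Among all 17789 undetected probe sets 44.6% were higher, 25.8% lower and 29.6% equal.

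**Figure D3:**
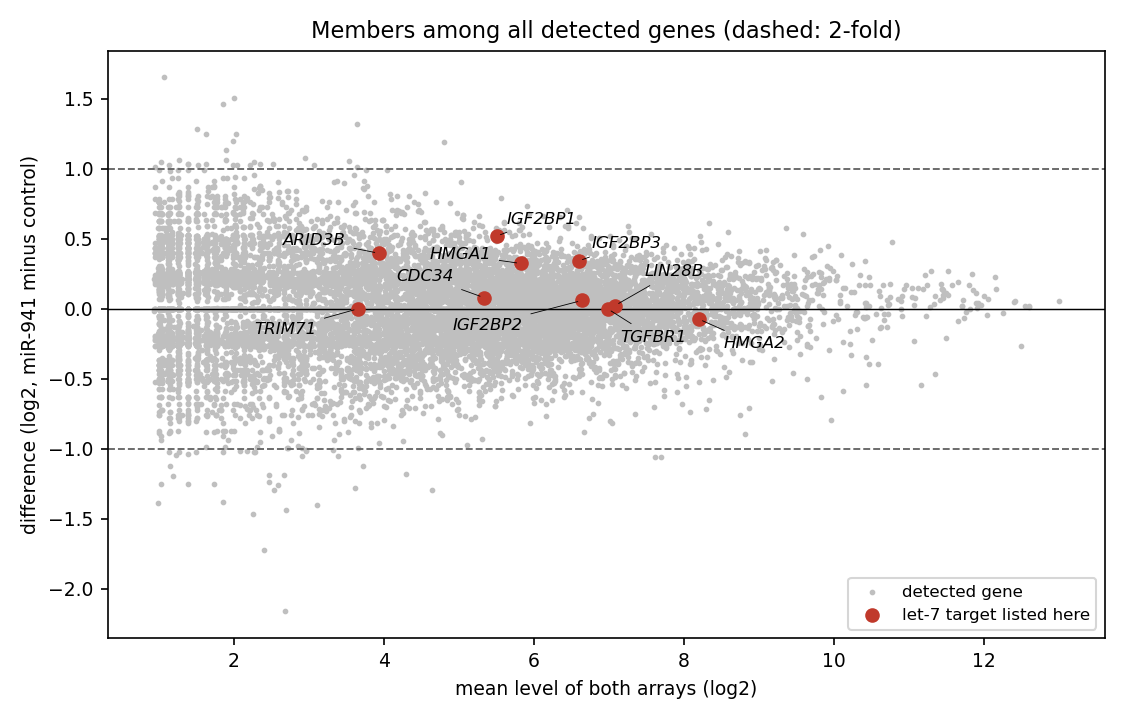
Log2 difference, miR-941 minus control, against mean level for the 13144 detected genes (grey) and the 10 members (red), with 2-fold dashed. No member reaches a dashed line, and IGF2BP1 at 0.52 is the highest of the 10.

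The cell line and the arrays were checked on other genes. Of 8 markers of 293T and its parent line that were measured, 7 were detected, beside 13144 of 19775 genes over the whole array. KRT8 was not detected, at 0.80 on the miR-941 array and 0.99 on the control array. The 7 detected markers differed in both directions. STMN1 had 0.44, NEFL 0.39, PAX2 0.37 and KRT18 0.24, while INA had -0.59, NEFM -0.26 and VIM -0.12. PAX2 read only 1.23 on the miR-941 array and 0.86 on the control array, so it passed only through its miR-941 reading. Of 10 markers of other cell types 5 were detected, VWF at a difference of 0.73, GFAP at 0.47, PECAM1 at 0.44, COL1A1 at -0.24 and KRT5 at -0.37. On the control array VWF read 0.66 and GFAP 0.89, so both passed the detection level only through the miR-941 array. PECAM1 read 0.93 on the control array, close to that level. The log2 readings of all 10, undetected ones included, sum to 10.1 on the miR-941 array and 9.45 on the control array. That sum of log2 values is not an amount of RNA. Single readings were at most 2.48 on the miR-941 array and 2.72 on the control array. PTPRC, CD3E, CD14, ALB and DCN did not pass the detection level. The part of other cell types in the members' values was not tested. Of the array's own actin controls, the one at the 5' end differed by -0.66, the middle one by -0.37 and the one at the 3' end by -0.045. The GAPDH controls differed less, by -0.19 at the 5' end, -0.074 in the middle and 0.050 at the 3' end. The part of these differences in the members' values was not tested.

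Other let-7 targets lay on both sides of 0, with more of them lower on the miR-941 array. For this list and those below, the shares over all detected genes are 46.3% higher, 42.4% lower and 11.3% equal. Of 40 listed genes 35 were measured and 33 detected: 10 were higher on the miR-941 array, 17 lower and 6 equal, with a median difference of -0.029 and none at 2-fold. That median was -0.12 without _x_at and _s_at probe sets and -0.086 averaged over probe sets. With the loess trend removed 15 were higher and 18 lower. The lowest were IRS2, an insulin receptor substrate, and CEMIP2, a membrane protein. IRS2 read 4.33 on the miR-941 array and 5.12 on the control array, a difference of -0.79 with both probe sets lower. CEMIP2 had -0.70 on its 1 detected probe set. The highest were CDC25A, a phosphatase that drives the cell cycle, at 0.41 and the mitochondrial carrier gene SLC25A24 at 0.30. CDC25A had 2 of its 3 detected probe sets lower and a median of -0.17. SLC25A24 had 1 of its 2 detected probe sets higher and a median of 0.15.

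Among well known let-7 targets, MYC read 9.10 on the miR-941 array and 9.24 on the control array, a difference of -0.13. HRAS read 5.60 on both arrays. The difference between the members and these other targets was not tested, since there is 1 array per group.

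Genes that make, use or block let-7 were lower for 11 of 19 detected genes and higher for 8, LIN28B among them, with a median of -0.049. Averaged over probe sets the median was -0.12, and without _x_at and _s_at probe sets it was -0.27 over 16 genes. The lowest were TNRC6C at -0.76 and AGO4 at -0.60, which act in silencing by Argonaute, and the highest were TRIM25, a ligase that helps LIN28A block let-7, at 0.51 and AGO3 at 0.39. TNRC6C had 3 of its 5 detected probe sets lower and a median of -0.24. AGO2, the protein named as the bait, had its mRNA at 7.44 on the miR-941 array and 8.02 on the control array. TUT4 and TUT7, which add uridines to let-7 precursors, differed by -0.29 and 0.13, and DIS3L2, which degrades the tailed precursors, by 0.14. LIN28A, the paralog of LIN28B, was below the detection level. HUWE1, the X-linked gene that holds miR-98 and a let-7f copy, read 10.36 on the miR-941 array and 10.42 on the control array. The noncoding hosts MIRLET7BHG, MIRLET7A1HG, MIR99AHG and MIR100HG had no probe set with 1 symbol above the detection level.

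Of 12 other oncofetal genes, 10 were measured and 7 detected, with a median of 0. Of these 3 were higher on the miR-941 array, 2 were lower and 2 equal. GPC3, a cell surface proteoglycan of fetal liver and liver tumours, had 0.27 and MYCN 0.21, while TPBG had -0.22 and PRAME -0.059. AFP and SALL4 had the same value on both arrays. MYCN read only 1.61 on the miR-941 array and 1.40 on the control array, and AFP 1.02 on both, near the detection level.

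Partners of the IGF2BP proteins, their coding region complex and mRNAs they bind, were lower for 9 of 13 detected genes, higher for 3 and equal for 1. The median was -0.064, where IGF2BP1 itself had 0.52, and ran from -0.14 to -0.040 over 4 other settings. YBX1, a cold shock protein of the complex, read 10.26 on the miR-941 array and 10.66 on the control array, a difference of -0.39 with both probe sets lower. The helicase gene DHX9 had -0.30, with 1 of its 2 detected probe sets higher. STAU1 had 0.15 and ELAVL1 0.031. ELAVL1 had 3 of its 4 detected probe sets lower and a median of -0.11.

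SCF ligase partners of CDC34 were higher for 4 of 12 genes and lower for 8, with a median of -0.025 that reached -0.085 with array medians set equal. FBXW7, a substrate receptor, had -0.52 and the scaffold gene CUL1 -0.28, while the adaptor gene SKP1 had 0.29 and CKS1B 0.18. UBE2R2, the paralog of CDC34, read 7.28 on the miR-941 array and 7.23 on the control array. Its difference of 0.055 was near that of the brightest CDC34 probe set.

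The TGF-beta and activin list had 11 of 14 detected genes lower on the miR-941 array, with a median of -0.21, where TGFBR1 was equal. Of all detected genes 42.4% were lower. BMPR2, a receptor of bone morphogenetic proteins, had -0.58 and the inhibitory SMAD7 -0.56. BMPR2 had 1 of its 4 detected probe sets higher and a median of -0.13. TGFBR2, the receptor that pairs with TGFBR1, read 5.47 on the miR-941 array and 5.81 on the control array, a difference of -0.34 on its 1 detected probe set. FKBP1A, which encodes an immunophilin that binds TGFBR1, had 0.73, with all 4 probe sets higher, and SMAD4 had 0.20. Averaging differences over probe sets gave 6 higher and 8 lower and a median of -0.047.

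The median of the ARID family was -0.096 (-0.16 with array medians set equal, -0.059 without _x_at and _s_at probe sets), with 3 of 11 detected genes higher, 6 lower and 2 equal. ARID1A, a subunit of chromatin remodelling complexes, had -0.77 and ARID1B -0.38, while KDM5A had 0.17, with 3 of its 5 detected probe sets lower, and ARID5A 0.10. ARID1B had 2 of its 6 detected probe sets higher and a median of -0.25. ARID3A, the closest relative of ARID3B measured, read 4.01 on both arrays. No gene of these 7 lists differed by 2-fold. With array medians set equal, the medians of the 7 lists run from -0.27 to -0.060, where the median of all detected genes is also -0.060. DICER1, ARID3A, TGFBR3 and BTRC each stand in more than 1 list.

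**Figure D4:**
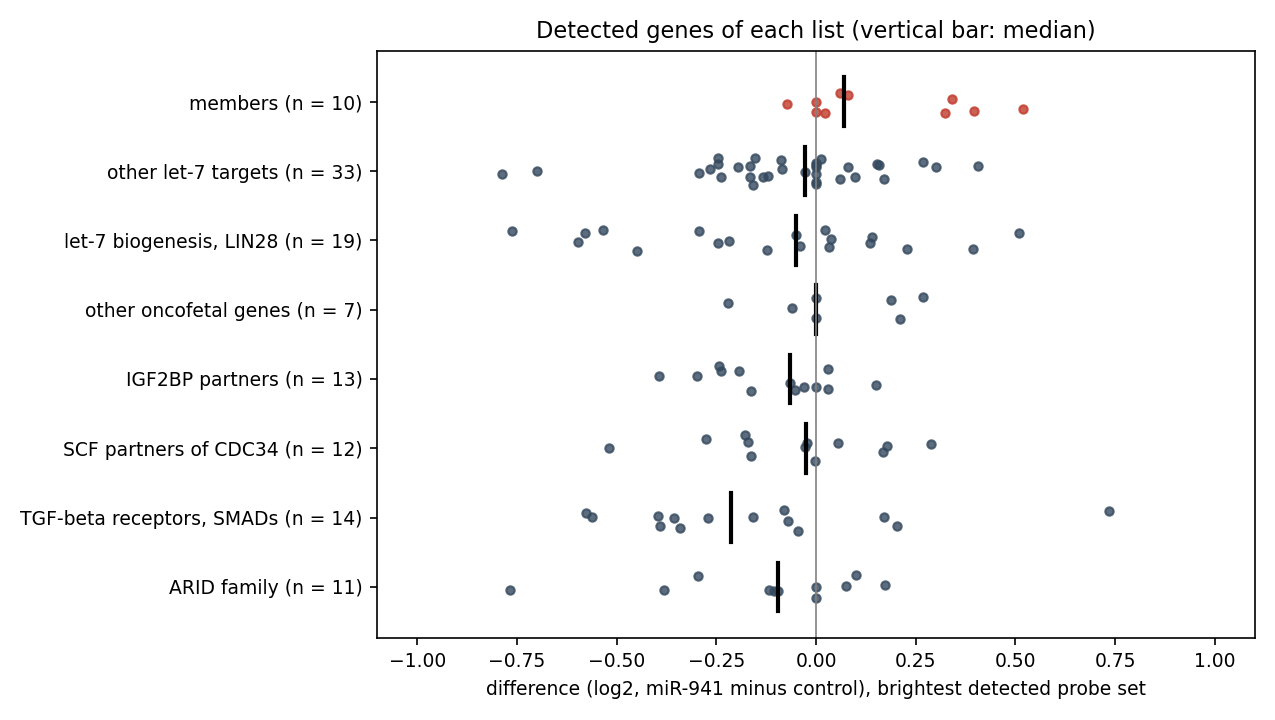
Log2 difference, miR-941 minus control, of the detected genes of the members and of the 7 other lists, with the median as a vertical bar. The members' median of 0.069 lies right of 0, and that of TGF-beta receptors and SMADs, at -0.21, lies farthest left.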

How the data were processed

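RNA of 2 immunoprecipitates was measured on arrays, 1 per group, grouped by the transfected oligonucleotide. The deposited values are RMA expression values that the authors computed in R, as the series' design text states, and were taken as log2. RMA, affy and MAS5 appear in the submitters' processing notes, with versions and roles not given in the sources used here. The log base and any centring are not stated. The array medians were 0.98 (miR-941) and 0.92 (control), and the highest values 13.7 and 13.6.

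Probe sets with 1 symbol in the platform annotation were used, symbols were updated through Entrez identifiers to RefSeq (GRCh38.p14), and 1801 probe sets with several symbols and 11721 with none were left out. A gene took its brightest probe set with a mean above 0.92. Differences are miR-941 minus control. With 1 array per group no test was made, and the number of arrays limits the precision. Named genes were all members, the 2 highest and 2 lowest of each list, close relatives and AGO2. A list of let-7 host transcripts was dropped, since WDR6 and RTL8C in it hold no let-7 locus in the RefSeq tables. MYC, HRAS, TUT4, TUT7, DIS3L2, HUWE1 and genes at equal values were added after their values were seen. The members and lists were chosen with earlier results of these data known. Python 3.11.15, pandas 2.3.3 and statsmodels 0.14.6 were used.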

Additional observations from a re-analysis of the deposited data

How the results depend on the processing

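The members' results were recomputed under 8 other settings. No paired analysis was possible because there is only 1 array on each side, and leaving an array out would leave no comparison. The count of members at 2-fold was 0 under each of these. The median difference ran from 0.0095 (array medians set equal) to 0.15 (mean or median over probe sets), and the count of higher members from 5 to 9 of 10, the 9 with the loess trend removed. Of all detected genes 41.3% were higher with array medians set equal and 50.3% with the loess trend removed, against 46.3% in the main setting. Without _x_at and _s_at probe sets 6 members have a value, 5 of them higher, beside 45.2% higher of 10099 genes over the whole array. IGF2BP3, HMGA1, HMGA2 and TGFBR1 then have none. IGF2BP1 ranged from 0.46 to 0.67, ARID3B from 0.34 to 0.41, HMGA1 from 0.26 to 0.40, IGF2BP3 from 0.28 to 0.35 and HMGA2 from -0.13 to -0.074. LIN28B, IGF2BP2, TRIM71 and TGFBR1 took both signs. With array medians set equal, genes at 2-fold over the whole array were 13 higher and 51 lower, against 29 and 38. Above the 75th percentile of level they were 4 and 7, with fewer genes tested, and averaged over probe sets 23 and 18.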

Other observations

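Antisense transcripts of the members, which took no part in the comparisons, were measured by 5 probe sets, and none passed the detection level. The 4 probe sets of IGF2BP2-AS1 differed by -0.21, 0, 0.21 and 0.37, and the 1 probe set of LIN28B-AS1 read 0.78 on the miR-941 array and 0.28 on the control array.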
